A study of Mus musculus with 6 samples.

Results

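The growth factors that drive the myeloid lineage and the receptors that read them are described here as transcripts in a pair of sorted cell populations of the mouse gut wall. The set holds 10 of the 26110 genes in the expression table: 6 receptor subunits (Csf1r, Flt3, Csf3r, Csf2ra, Csf2rb and Csf2rb2) and 4 ligands (Csf1, Il34, Flt3l and Csf2), each chosen by its symbol and each present once. Cells with high MHC class II on their surface (MHCII hi) were sorted from the muscularis externa (ME), the outer muscle coat of the small bowel, of untreated CX3CR1GFP/+ mice on a C57BL/6 background. In these animals GFP replaces 1 copy of the chemokine receptor gene Cx3cr1, so that GFP reports its promoter in a population that keeps a single working copy, and the sort divided GFP-bearing CX3CR1+ cells from CX3CR1- cells, with 3 RNA-seq libraries of each. All mice carried the same reporter genotype, the tissue of several mice was pooled for a sort, and ages were not given. Whether each library had a pool of its own is not stated either, so the p-values measure the spread between these libraries, which may be technical.

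CSF1R is the receptor tyrosine kinase on which most tissue macrophages depend, and it binds 2 ligands, CSF1 and IL-34. FLT3 is the related kinase that maintains dendritic cells and their progenitors through FLT3 ligand. GM-CSF (Csf2) acts through a private alpha chain (Csf2ra) and the common beta chain (Csf2rb), which also serves IL-3 and IL-5, and mice have a close copy of the beta chain, Csf2rb2, that pairs with the IL-3 alpha chain. CSF3R reads G-CSF and is best known on neutrophils, although monocytes and some macrophages carry it as well.

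The libraries held about 5346379 to 17616748 reads, estimated from the value that a single read takes in each, and 3 reads corresponded to a value of 1.39 to 5.36. Values are estimated counts divided by a library's size factor, called normalized values below, and the floor of 3 reads covers counting error only. The sort itself was visible in Cx3cr1, at 366 ± 17.5 in CX3CR1+ and 23.6 ± 4.80 in CX3CR1- (SD, n = 3). The labels call both populations dendritic cells, whereas all 10 macrophage markers examined were higher in CX3CR1+ and all 10 conventional dendritic cell markers, Flt3 among them, were higher in CX3CR1-. Mitochondrial transcripts took 18.1% to 21.2% of the values in CX3CR1+ libraries and 47.5% to 54.9% in CX3CR1- libraries, and after scaling to the total without them the log2 fold changes of Csf1r, Csf3r and Flt3 were -2.24, -3.81 and 3.50, all still called. In such bulk libraries, fewer cells of a type and less RNA per cell cannot be told apart.

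The populations differed most in 3 receptors. CX3CR1- libraries held less Csf1r (5.31-fold) and less Csf3r (16.3-fold) and more Flt3 (10.6-fold) than CX3CR1+ libraries, whereas the 3 subunits of the GM-CSF and IL-3 receptors differed by less than 2-fold and neither of the 2 ligands abundant enough for the test passed it. Of the 10 genes, 8 had a mean normalized value of at least 10 and were tested with limma on log2(value + 1) together with all 17812 genes above that level. To be called, a gene needed a log2 fold change of 1 or more in either direction together with a Benjamini-Hochberg adjusted p no higher than 0.05. On that rule 3 of the 8 were called, 1 higher and 2 lower in CX3CR1-, against 20.4% of all genes tested (12.2% higher and 8.15% lower). On the adjusted p alone 5 of the 8 passed, against 24.3% of all genes, and the values of the populations did not overlap for 6 of the 8, against 40.0% of all genes.

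**Figure D1:**
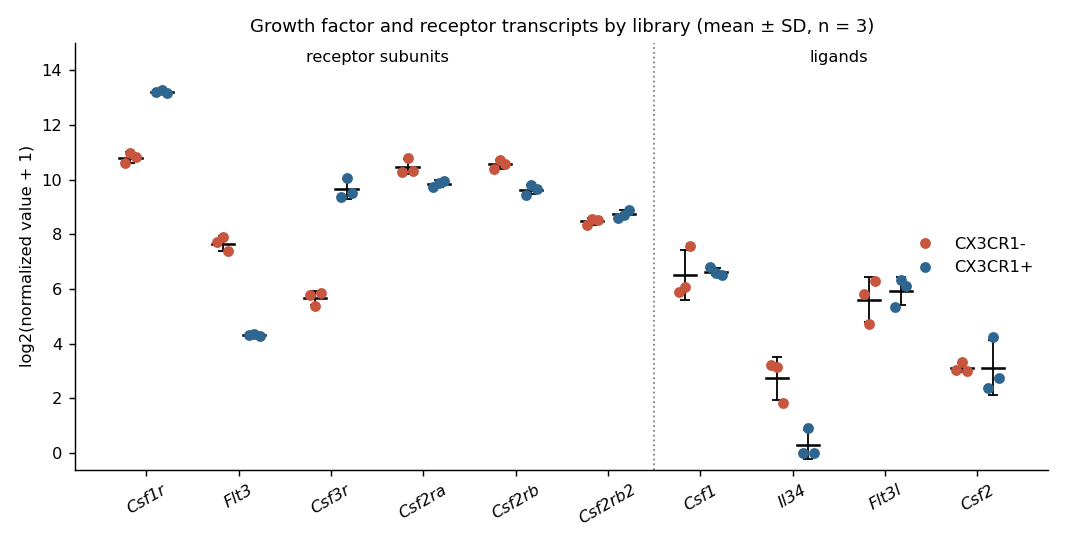
Each point is a library, placed at log2(normalized value + 1) for the 6 receptor genes on the left and the 4 ligand genes on the right, with bars for mean ± SD (n = 3). Csf1r, Flt3 and Csf3r show a wide gap between CX3CR1- and CX3CR1+, while Csf1, Flt3l and Csf2 overlap.

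Csf1r (chr18:61100598-61132149 in GRCm38, plus strand) was the most abundant transcript of the set in CX3CR1+ cells. Its normalized value was 9318, 9963 and 9179 in the CX3CR1+ libraries and 1539, 2011 and 1809 in the CX3CR1- libraries. Every CX3CR1+ library lay more than 4 times above every CX3CR1- library, yet each CX3CR1- value still rested on about 1125 reads or more. The log2 fold change was -2.42 ± 0.14 (SE, limma, adjusted p = 4.383e-06), and it stayed between -2.51 and -1.92 over 16 alternative treatments of the data.

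Csf3r (chr4:126024550-126044440, plus strand) showed the widest gap. It stood at 660, 1076 and 728 in CX3CR1+ libraries and at 54.5, 40.1 and 56.6 in CX3CR1- libraries, where the values rested on about 22.5 to 56.8 reads. All CX3CR1+ values were far above the others, although they spread more among themselves (a coefficient of variation of 27.2%) than those of Csf1r (4.41%). The log2 fold change was -3.98 ± 0.26 (SE, limma, adjusted p = 6.587e-06) and ranged from -4.12 to -3.76 over the alternatives. Of 10 neutrophil markers 8 were not analysed here, and the other two, Cxcr2 and Mpo, summed to 42.7 to 62.3 in CX3CR1- and 50.4 to 72.9 in CX3CR1+ libraries. Cxcr2, a chemokine receptor of neutrophils, had a log2 fold change of -0.27 ± 0.31 (SE, limma, adjusted p = 0.5861), and with 1 gene of the list tested the part of neutrophils in the Csf3r result was not tested.

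Flt3 (chr5:147330741-147400489, minus strand) ran the other way. It reached 207, 237 and 164 in CX3CR1- libraries and only 19.1, 19.5 and 18.7 in CX3CR1+ libraries. The CX3CR1+ values were nearly equal and rested on about 13.2 to 41.4 reads, all above the floor of 3 reads. The log2 fold change was 3.33 ± 0.29 (SE, limma, adjusted p = 3.045e-05), with a range of 2.86 to 3.50 over the alternatives.

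**Figure D2:**
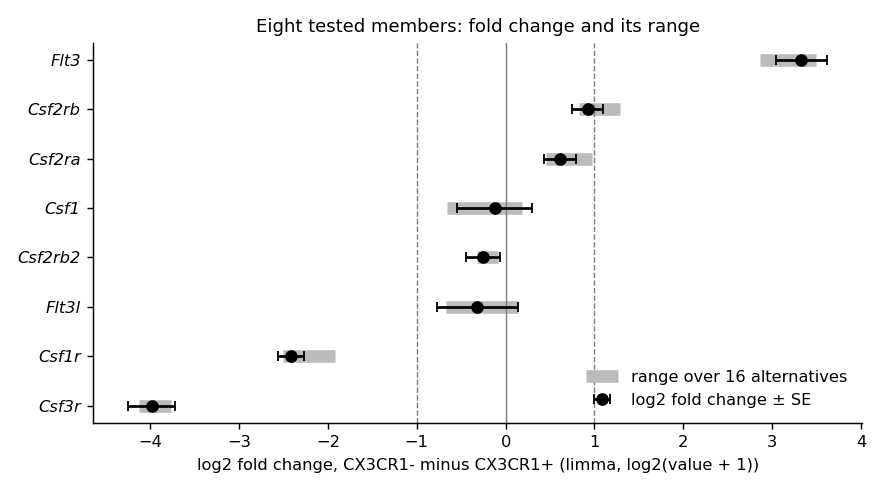
Black points give the log2 fold change of the 8 tested genes (CX3CR1- minus CX3CR1+) with the SE of limma, grey bars its range over 16 alternative treatments, and dashed lines the threshold of 1. Flt3, Csf1r and Csf3r stay beyond the threshold throughout, Csf2rb crosses it in 4 of the alternatives, and Csf1 and Flt3l change sign in some.

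The receptors of the macrophage and the dendritic cell lineages can also be set against each other within a library, where any scaling factor drops out. Csf1r exceeded Flt3 by 7.42, 8.48 and 11.01 times in CX3CR1- libraries and by 487, 512 and 492 times in CX3CR1+ libraries. The log2 ratio was 3.14 ± 0.29 in CX3CR1- and 8.88 ± 0.04 in CX3CR1+ (SD, n = 3), a difference of -5.74 (two-sided exact permutation test, p = 0.1, the smallest value that 3 against 3 libraries allow). Csf1r had the higher value of both kinase transcripts in every library, also in the population that held more Flt3.

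Csf1r and Flt3 were next read against the summed values of markers of their own lineages, a comparison chosen once the data were known. The 10 macrophage markers, led by the mannose receptor Mrc1 and the complement gene C1qb, summed to 8894 to 11125 in CX3CR1- and 46088 to 51808 in CX3CR1+ libraries. Relative to that sum, Csf1r stood at -2.51 ± 0.04 in CX3CR1- and -2.35 ± 0.03 in CX3CR1+ on the log2 scale (SD, n = 3), a difference of -0.17 where its level had differed by -2.42. The sign turned, to 0.13, when the markers were averaged on the log2 scale and not summed. Relative to the same sum, Csf3r stood at -7.64 ± 0.39 in CX3CR1- and -5.91 ± 0.29 in CX3CR1+ (SD, n = 3), a difference of -1.73. Relative to the log2 average its difference was -1.44 (two-sided exact permutation tests, p = 0.1 for each of these ratios of Csf1r and Csf3r, the smallest possible). The difference in Csf3r relative to these markers was larger than its spread between libraries under both ways of combining them. That in Csf1r relative to the sum was also larger than its spread, and its groups did not overlap. The log2 fold changes of the markers themselves ran from -1.45 (Cd68) to -3.92 (the sorted gene Cx3cr1 itself), beside -3.98 for Csf3r. The part of macrophage numbers in either receptor result was not tested.

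For Flt3 the sum was taken over the 9 other conventional dendritic cell markers, with the lectin receptors Clec9a (1014 ± 158 in CX3CR1- and 54.5 ± 17.6 in CX3CR1+) and Cd209a (842 ± 49.5 and 26.5 ± 8.44) as the most abundant in CX3CR1- libraries, whereas Itgax led in CX3CR1+ libraries (152 ± 4.29). Relative to them Flt3 stood at -4.48 ± 0.21 in CX3CR1- and -4.52 ± 0.13 in CX3CR1+ (SD, n = 3). The groups overlapped, with a difference of 0.04 (two-sided exact permutation test, p = 0.6). Against the log2 average of the markers Flt3 stood at -1.12 ± 0.24 in CX3CR1- and -0.68 ± 0.24 in CX3CR1+ (SD, n = 3). That difference of -0.44 had the opposite sign, and the groups did not overlap (two-sided exact permutation test, p = 0.1, the smallest possible).

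**Figure D3:**
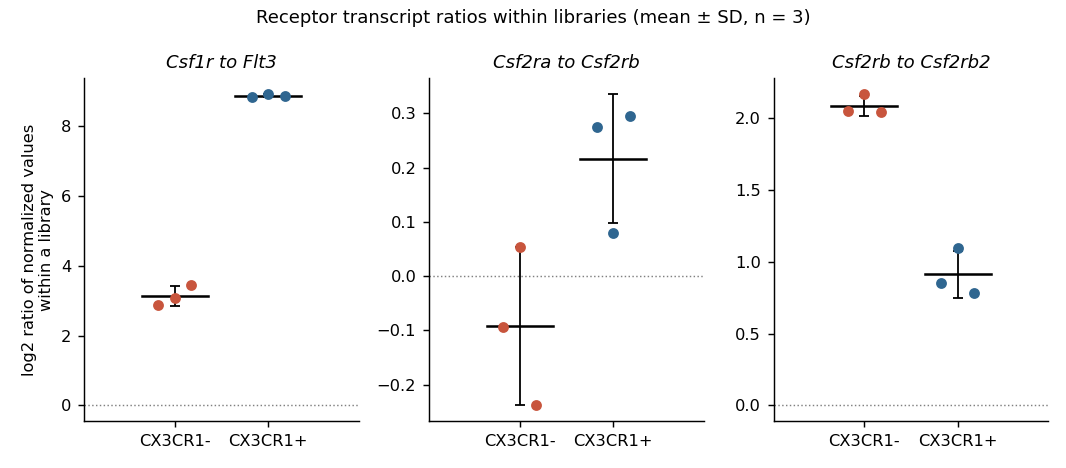
Points are log2 ratios of normalized values within a library for Csf1r to Flt3, Csf2ra to Csf2rb and Csf2rb to Csf2rb2, with mean ± SD (n = 3) and a scale of its own for each panel. The groups do not overlap in any panel, and the gap for Csf1r to Flt3 (-5.74) is the widest and that for Csf2ra to Csf2rb (-0.31) the narrowest.

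The GM-CSF receptor was abundant in both populations. Csf2ra, the alpha chain that binds the cytokine (chr19:61223957-61228429, minus strand), stood at 1251, 1756 and 1280 in CX3CR1- and at 844, 936 and 994 in CX3CR1+ libraries. The groups did not overlap, and the log2 fold change of 0.61 ± 0.18 (SE, limma, adjusted p = 0.03279) lay under the fold threshold. Its adjusted p stayed at or under 0.05 in 11 of 16 alternatives (range 0.003036 to 0.136). It rose to 0.1193, 0.09364 and 0.06845 without CX3CR1+ replicates 1, 2 and 3 in turn and to 0.07466 without CX3CR1- replicate 2.

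Csf2rb, the beta chain that carries the signal (chr15:78325752-78353847, plus strand), stood at 1336, 1692 and 1510 in CX3CR1- and at 697, 886 and 810 in CX3CR1+ libraries. The groups were again separate, with a log2 fold change of 0.92 ± 0.17 (SE, limma, adjusted p = 0.003099). This was just below the threshold of 1, which it passed in 4 of 16 alternatives (1.29 after quantile normalization, 1.09 after scaling to the total without mitochondrial genes, and without CX3CR1- replicate 1 or CX3CR1+ replicate 2), while the adjusted p stayed at or under 0.03617.

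The balance of alpha and beta chain was compared between the populations within libraries. Csf2ra divided by Csf2rb was 0.937, 1.04 and 0.848 in CX3CR1- libraries and 1.21, 1.06 and 1.23 in CX3CR1+ libraries, ratios of values not divided by transcript length, which therefore compare the populations and not the chains. On the log2 scale the ratio was -0.09 ± 0.15 and 0.22 ± 0.12 (SD, n = 3), a difference of -0.31 (two-sided exact permutation test, p = 0.1). The closest libraries of the groups had log2 ratios of 0.05 and 0.08, so that the gap between the groups was smaller than the SD within either.

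Csf2rb2 (chr15:78282507-78305721, minus strand) is the neighbour and near copy of Csf2rb, with 20030 bases between the genes. It stood at 321, 376 and 366 in CX3CR1- and at 385, 413 and 470 in CX3CR1+ libraries, with a log2 fold change of -0.25 ± 0.19 (SE, limma, adjusted p = 0.3795). The groups did not overlap, but only narrowly. Within a library Csf2rb exceeded its copy by 4.16, 4.50 and 4.13 times in CX3CR1- and by 1.81, 2.14 and 1.72 times in CX3CR1+ libraries, a difference in log2 ratio of 1.18 (two-sided exact permutation test, p = 0.1, a ratio chosen once the data were known). The division of reads between the copies bears on this value.

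The sequences show how little separates the copies. The coding sequences of the GENCODE transcripts Csf2rb-201 (2688 bases) and Csf2rb2-201 (2634 bases) were identical at 2503 of 2628 aligned bases (95.2%), with a longest identical run of 242 bases, and 18.3% of the windows as long as a sequencing read (75 bases) held no difference. The first 75 coding bases follow, 5′ to 3′ on the coding strand in GRCm38, since they hold 2 differences, the median for a window of that length. Capitals mark the bases at which the copies differ, and Csf2rb lies at chr15:78335207-78335281 (plus strand) and Csf2rb2 at chr15:78298155-78298229 (minus strand).
Csf2rb: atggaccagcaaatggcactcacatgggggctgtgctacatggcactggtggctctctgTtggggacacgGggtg
Csf2rb2: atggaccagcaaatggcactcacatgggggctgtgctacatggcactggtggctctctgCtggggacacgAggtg
A read that ended before the first capital could not be given to either gene by this stretch. Over all annotated transcripts 18.8% of the 31-base words of Csf2rb occur in Csf2rb2 and 28.6% of those of Csf2rb2 occur in Csf2rb, so the values of both genes, and of Csf2rb2 as the less abundant more than of Csf2rb, depend on how kallisto divided shared reads. Of the other members, Csf3r shares 19.9% of its words with the annotated gene AC105061.2, which was not analysed here, and Csf1r shares 14.6% of its words with its neighbour Hmgxb3, which had values of only 37.6 to 135.

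The ligands were low in these sorted cells. Csf1 (chr3:107741048-107760469, minus strand) stood at 58.5, 65.6 and 190 in CX3CR1- and at 110, 94.8 and 91.2 in CX3CR1+ libraries. A single CX3CR1- library stood above all others and the remaining CX3CR1- libraries below all CX3CR1+ libraries, so that the groups overlapped (log2 fold change -0.12 ± 0.42, SE, limma, adjusted p = 0.8644). The log2 fold change was 0.18, 0.10 and -0.66 without CX3CR1- replicates 1, 2 and 3 in turn. The 6 fibroblast markers, whose cells a sort for MHCII hi should leave out, summed to 7226, 4117 and 12168 in CX3CR1- replicates 1 to 3 and to 181 to 316 in CX3CR1+ libraries. The sum was highest in the library with the highest Csf1. The Csf1 values of CX3CR1- replicates 1 and 2 were close and rested on about 56.0 and 36.7 reads. The part of fibroblasts in the result was not tested.

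Il34 (chr8:110741829-110805924, minus strand), the other ligand of CSF1R, had values of 8.36, 7.87 and 2.52 in CX3CR1- and of 0, 0.883 and 0 in CX3CR1+ libraries. Above the floor of 3 reads lay 2 of the 6 libraries, CX3CR1- replicates 1 and 2, with about 8.0 and 4.4 reads, so that no fold is given. With the filter on low values left out, the limma fit across 26110 genes gave an adjusted p of 0.0605.

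Flt3l (chr7:45129788-45136432, minus strand), the ligand of FLT3, stood at 55.3, 25.0 and 77.8 in CX3CR1- and at 39.5, 79.0 and 68.0 in CX3CR1+ libraries. The groups overlapped over almost their whole range (log2 fold change -0.32 ± 0.46, SE, limma, adjusted p = 0.6678), and 19.8% of the 31-base words of this gene recur in the annotated gene Gm45713. The lowest value rested on about 14.0 reads and was the one whose removal turned the sign, to 0.13. No difference of the ligand was detectable at this depth and spread.

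Csf2 (chr11:54247271-54249667, minus strand), which encodes GM-CSF, had values of 7.31, 8.94 and 6.98 in CX3CR1- and of 4.16, 18.0 and 5.67 in CX3CR1+ libraries, about 4.0 to 22.0 reads each. The CX3CR1+ libraries held both the highest and the lowest value, and the gene was too low for the test (adjusted p = 0.9988 in the limma fit without the filter). Both chains of its receptor were expressed in each population.

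Levels can be compared between genes only per length, here as the mean normalized value per kilobase of the longest coding transcript in GENCODE. In CX3CR1+ libraries Csf1r led with 2018 ± 89.0 per kilobase (SD, n = 3), followed by Csf2ra with 500.1 ± 41.1, Csf3r with 236 ± 64.2, Csf2rb with 163 ± 19.4 and Csf2rb2 with 89.2 ± 9.13, without an overlap between neighbours in that order. Flt3, with 5.22 ± 0.11 per kilobase, was the lowest receptor there and came after the ligands Flt3l (45.8 ± 15.03), Csf1 (23.6 ± 2.35) and Csf2 (11.6 ± 9.52), whose range it touched. In CX3CR1- libraries Csf2ra led with 773 ± 153 per kilobase, ahead of Csf1r with 380 ± 50.4 and Csf2rb with 309 ± 36.3, which overlapped each other. Csf2rb2 (74.7 ± 6.09) and Flt3 (55.5 ± 10.01) came next, and Flt3 overlapped Flt3l (38.8 ± 19.5). Csf3r, which ranked above the beta chains in CX3CR1+ cells, was the lowest receptor in CX3CR1- cells with 14.5 ± 2.57 per kilobase. Csf1r and Csf2ra thus exchanged the leading rank between the populations.

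Genes with the most similar profile were sought for 3 receptors, by the root mean square difference of centred log2(value + 1) over the 6 libraries. For Csf1r these were Rmi1 (0.08), the complement gene C1qb (0.10) and Cttnbp2nl (0.10). For Flt3 they were Epb41l3 (0.13), S100a11 (0.15) and a gene whose symbol is stored as a calendar date (0.17). For Csf2rb they were 5430416N02Rik (0.07), Bzw2 (0.08) and Selplg (0.08), the last of which encodes a selectin ligand of leukocytes. With 2 groups of 3 libraries the match rests largely on the size of the gap between the groups.

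Other growth factors and receptors of the same families were followed as a list of 15 genes, of which Il3, Il5 and Epo were not analysed here and 9 were tested. The 9 had a median log2 fold change of 2.08, against -0.0035 for all genes tested. In CX3CR1- libraries 6 were higher and none was lower by the call rule, against 12.2% and 8.15% of all genes tested. The largest were receptors and receptor-like proteins with markers of other cell types among them. Pdgfra, the PDGF receptor of fibroblasts, stood at 1387, 450 and 2356 in CX3CR1- and at 46.5, 20.1 and 16.8 in CX3CR1+ libraries (log2 fold change 5.45 ± 0.56, SE, limma, adjusted p = 8.342e-05). Sdc1, a syndecan of plasma cells and epithelium that also binds IL-34, stood at 155, 112 and 103 against 6.71, 3.15 and 1.99 (4.74 ± 0.48, adjusted p = 7.286e-05).

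Kit, the kinase closest to CSF1R and FLT3 and a marker of interstitial cells of Cajal and mast cells, stood at 382, 133 and 532 in CX3CR1- and at 40.3, 18.1 and 35.7 in CX3CR1+ libraries (3.30 ± 0.50, adjusted p = 0.0009272). Both Pdgfra and Kit were highest in CX3CR1- replicate 3 and lowest in replicate 2 of the group, the order of the fibroblast sum, which includes Pdgfra, and also of the summed interstitial cell markers (942, 450 and 1295), which include Kit. Csf3, the ligand of CSF3R, was too low for the test, with 1.79 to 5.98 in CX3CR1- and 1.42 to 9.02 in CX3CR1+ libraries. Il3ra, the alpha chain that Csf2rb2 and Csf2rb pair with, had 18.8, 34.3 and 0.595 in CX3CR1- and 40.02, 23.2 and 35.3 in CX3CR1+ libraries, and a log2 fold change of -1.67 ± 0.98 (SE, limma, adjusted p = 0.2577). Its groups overlapped and 1 CX3CR1- library was close to 0.

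The kinases, STAT factors and feedback genes behind the GM-CSF, IL-3 and G-CSF receptors formed a list of 20 genes. The 19 tested had a median log2 fold change of -0.25. Of them, 3 were called higher and 4 lower in CX3CR1-, against 12.2% and 8.15% of all genes tested. Jak2, the kinase bound to the common beta chain, was higher, at 1138 ± 137 in CX3CR1- and 388 ± 56.3 in CX3CR1+ (log2 fold change 1.55 ± 0.19, SE, limma, adjusted p = 0.0002203). The feedback inhibitors Socs2 (145 ± 40.3 and 29.0 ± 9.62, log2 fold change 2.29) and Cish (194 ± 81.6 and 56.0 ± 15.8, log2 fold change 1.74) were also higher. Socs3, also a feedback inhibitor, was lower (1116 ± 202 and 2168 ± 590, log2 fold change -0.93, limma, adjusted p = 0.01426). Its change lay under the fold threshold and was not called. The genes called lower were the survival genes Bcl2l1 (72.5 ± 29.9 and 291 ± 21.7, log2 fold change -2.09) and Mcl1, the kinase Pim1 (1808 ± 355 and 5120 ± 1235, log2 fold change -1.49) and the adaptor Shc1 (498 ± 69.0 and 1105 ± 134, log2 fold change -1.15). After quantile normalization 1 gene, Bcl2l1, was still called lower, and 2 after scaling to the total without mitochondrial genes.

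**Figure D4:**
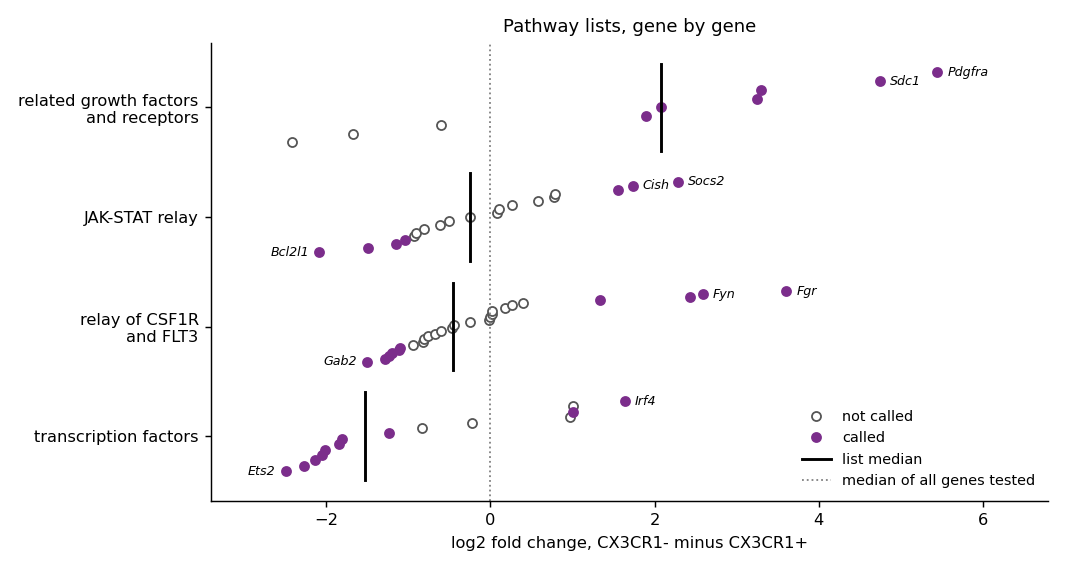
Each point is a tested gene of 1 of 4 pathway lists, placed at its log2 fold change (CX3CR1- minus CX3CR1+), filled where called. Black bars are list medians, from 2.08 for related growth factors and receptors to -1.53 for transcription factors, and the dotted line is the median of all genes tested.

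The adaptors and enzymes that relay CSF1R and FLT3 signals formed a list of 27 genes with 26 tested (median -0.46). Of these 26, 4 were called higher and 6 lower in CX3CR1-, against 12.2% and 8.15% of all genes tested. Higher were Fgr (157 ± 41.8 and 14.8 ± 12.3, log2 fold change 3.61) and Fyn (249 ± 87.9 and 41.9 ± 17.6, 2.59), both kinases of the Src family, the adaptor Dok2 (285 ± 96.3 and 49.997 ± 5.92, 2.44) and the ubiquitin ligase Cblb. Among the lower were the adaptors Gab2 (325 ± 25.0 and 925 ± 56.5, -1.51) and Grb2 (217 ± 70.4 and 510 ± 37.5, -1.28), the phosphatase Inpp5d (534 ± 62.0 and 1253 ± 87.4, -1.23) and Tyrobp (2159 ± 391 and 4659 ± 759, -1.11), the adaptor DAP12 that works with CSF1R in macrophages. After quantile normalization 3 of the list were still called lower, Gab2 and Grb2 among them, whereas Inpp5d and Tyrobp were not, so that their calls depend on the scaling.

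Transcription regulators of the receptor genes or of their lineages formed a list of 16 genes with 14 tested (median -1.53). Of these 14, 2 were called higher and 8 lower in CX3CR1-, against 12.2% and 8.15% of all genes tested. Spi1, which encodes PU.1 and is required for Csf1r and Csf3r, was lower, as were Runx1 and Cebpa. Id2 was lower too (375 ± 65.1 and 1385 ± 533, log2 fold change -1.81). The largest decreases were those of Ets2 (582 ± 187 and 3202 ± 426, log2 fold change -2.50), Cebpb (186 ± 51.8 and 890 ± 174, -2.27) and Maf (785 ± 69.0 and 3448 ± 304, -2.13), all larger than that of Spi1 (-1.24), which was the call that quantile normalization ended among the lower genes. Irf4 was higher (903 ± 38.9 and 291 ± 46.7, 1.64), as was Klf4 with a log2 fold change at the threshold itself (1263 ± 99.98 and 630 ± 59.8, 1.005). Klf4 lost the call in 4 alternatives, with a log2 fold change of 0.94 without CX3CR1- replicate 2, 0.92 without CX3CR1+ replicate 3, 0.99 with a pseudocount of 10 and 0.98 with library weights. Irf8, which dendritic cells and macrophages both use, did not pass (-0.22 ± 0.17, SE, limma, adjusted p = 0.3821). Batf3 passed the fold threshold but not the adjusted p (1.01 ± 0.33, SE, limma, adjusted p = 0.05058).

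Markers of other cells moved with the populations, and their part in the receptor results was not tested. By the call rule, 12.2% of all genes tested were higher in CX3CR1- and 8.15% lower. Between CX3CR1- and CX3CR1+ libraries, the 8 epithelial markers summed to 16057 to 27386 against 29.2 to 49.4, with 8 of 8 called higher in CX3CR1-, led by the fatty acid carrier Fabp2. The 6 fibroblast markers (4117 to 12168 against 181 to 316) were called higher in 6 of 6 cases, and the 7 B and plasma cell markers (1703 to 3942 against 68.7 to 97.3) in 6. Monocyte markers summed to 1577 to 3513 against 736 to 832, with 3 of 4 tested called higher, among them Ccr2 and Plac8. Eosinophil markers, which include Il5ra, summed to 90.3 to 110 against 13.6 to 16.5 with both tested genes higher. Of the T, NK and innate lymphoid cell markers (373 to 521 against 590 to 634) 3 of 4 tested were higher and 1, Cd4, was lower. Cd4 alone, at 107 ± 5.80 in CX3CR1- and 528 ± 19.3 in CX3CR1+, made up most of the CX3CR1+ sum. Endothelial and lymphatic markers summed to 1137 to 1585 against 684 to 859, with 4 of 6 higher and 1 lower. For interstitial cells of Cajal (450 to 1295 against 492 to 729) 2 of 4 and for neurons and glia (140 to 480 against 88.2 to 96.2) 2 of 6 tested were higher, while none of 6 smooth muscle markers was called (918 to 2675 against 1954 to 2745). None of the 6 mast cell markers was analysed here.

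**Figure D5:**
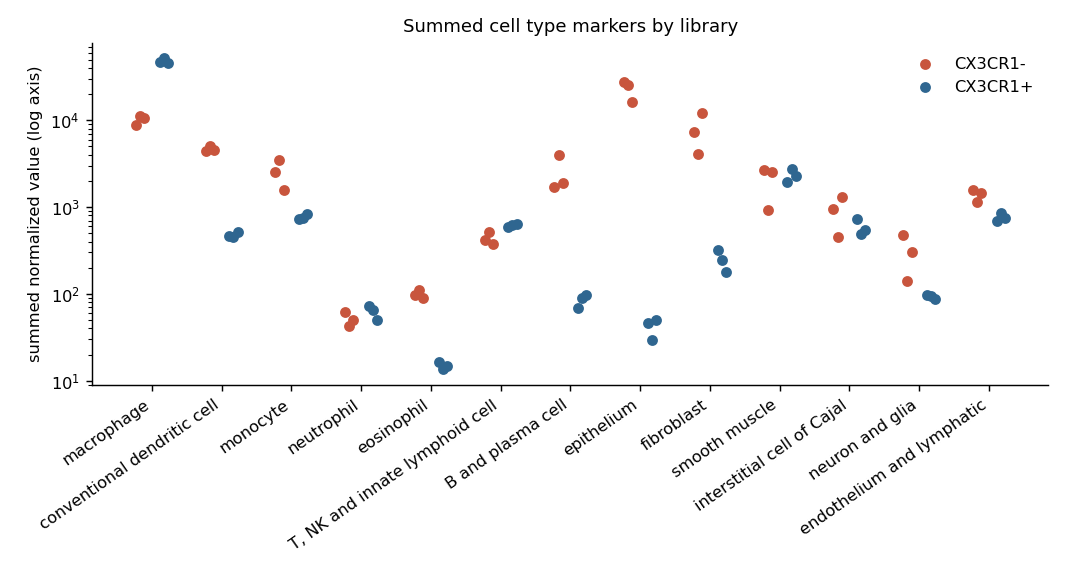
Each point is the summed normalized value of a marker list in a library, on a log axis, for 13 cell types. Macrophage markers are higher in CX3CR1+, and conventional dendritic cell, epithelial, fibroblast and B and plasma cell markers are higher in CX3CR1- libraries without overlap.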

How the data were processed

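Cells were sorted by MHC class II and GFP, and RNA libraries were made with the TruSeq v2 kit and sequenced as single reads of 75 bases. Per the study's methods and the labels, the authors assigned reads to mm10 transcripts of GENCODE M16 with kallisto, summed them per gene with tximport and normalized them with DESeq2. The deposited table thus holds signal values, namely estimated counts divided by a size factor, not raw counts, and not whole reads (42.5% to 44.5% of values were whole multiples, within 0.01, of the value of 1 read), so that no count model was used. Each column was matched to its sample by the library number in the sample title.

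From this table log2(value + 1) was tested with limma 3.58.1 (R 4.3.3, intensity trend) for genes with a mean of at least 10. The fit was also run on simulated counts with the same spread setting for all genes and both groups. These data do not share that setting, and no result here rests on the simulation. Ratios within libraries were compared by exact permutation tests. Members and gene lists were chosen with earlier results of these data known. Named genes were all 10 members, the 3 largest called changes in each direction per pathway list, Csf3, Il3ra, Kit and Tyrobp, up to 2 abundant markers per list, and the 3 nearest profiles of Csf1r, Flt3 and Csf2rb. Mcl1, Socs3, Cblb, Runx1, Spi1, Cebpa, Id2, Batf3, Irf8, Cd4 and Cxcr2 were named after their values were seen. Positions, transcript lengths, shared words of 31 bases and sequences came from GENCODE M21 (GRCm38), the nearest release at hand to the one the authors used. Alternatives were the pseudocount, the filter, the scaling, the trend, library weights, a block and the omission of each library. A result on a withheld item is not reported here.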

Additional observations from a re-analysis of the deposited data

How the results depend on the processing

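Csf1r, Csf3r and Flt3 kept their direction and call under all 16 alternatives, and the count of members called was 3 or 4. Leaving out a library gave 2771 to 3869 genes called in place of 3628, and -0.66 to 0.18 for Csf1, -0.67 to 0.13 for Flt3l, 0.46 to 0.70 for Csf2ra and -0.026 to 0.165 for Flt3 against dendritic cell markers on the log2 scale. Csf1 also turned to 0.047 when values were scaled to the total without mitochondrial genes. Csf2ra lost its adjusted p in a fit without the intensity trend (log2 fold change 0.61, adjusted p = 0.136, limma). A mean of at least 50 left 2413 genes called of 10208 tested, fewer in number because fewer genes were tested. The Csf1r to Flt3 difference became -5.27 with a pseudocount of 10 and -5.04 after quantile normalization, which also moved the Csf2rb to Csf2rb2 difference to 1.43 and the count of pathway genes called lower from 18 to 11, and the cause was not tested. Quantile normalization moved the median over all genes to -0.15 on the log2 scale and scaling without mitochondrial genes to 0.17, and the share of calls that were higher in CX3CR1- went from 60.0% to 50.6% and 69.4%. Against the log2 average of markers, the differences were 0.13 for Csf1r and -0.44 for Flt3. The labels give no replicate numbers that the groups share, and a block for adjacent library numbers, which they do not call pairs, left 3610 genes called. Depth limits Il34 and Csf2, with at most 22.0 reads in a library.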
